A study of Rattus norvegicus with 10 samples.

Results

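The metabotropic glutamate receptor genes examined here were Grm2, Grm3, Grm4, Grm5, Grm7 and Grm8. They were taken by gene name, though with earlier results of these data known. All 6 were found in the table of 32041 RNA records with 1 row each, and all 6 rows passed the filter on low counts. The tissue was the left hippocampus of adult male Sprague-Dawley rats, labelled as dorsal hippocampus and holding the CA3 field and the dentate gyrus. The TBI group was 5 rats given a lateral fluid percussion injury, a pressure pulse of 3.32 atm onto the intact dura through a hole in the skull over the left parietal lobe. The sham group was 5 rats with the same anaesthesia and surgery but no pulse. The study's methods give fewer TBI controls for expression profiling than the labels do, without saying which rats, and the labels were followed here. Tissue of both groups was collected 3 months after the operation, and both carry the craniectomy, so its own effect cannot be seen in this comparison. The labels name no genotype or drug treatment beyond the anaesthesia. The comparison asked whether transcripts of these receptors differ between injured and sham-operated rats long after a trauma that can lead to epilepsy.

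Metabotropic glutamate receptors are G protein-coupled receptors that bind synaptic glutamate in a large extracellular domain and act more slowly than glutamate-gated channels. Group I, with Grm5, couples to Gq, phospholipase C and calcium release and sits mostly around the postsynaptic density. Group II (Grm2 and Grm3) and group III (Grm4, Grm6, Grm7 and Grm8) couple to Gi/o, lower cyclic AMP and, on nerve terminals, reduce transmitter release. In the hippocampus, Grm2 is known from dentate granule cells and their mossy fibre terminals in CA3, Grm3 from neurons and astrocytes, and Grm7 from the release sites of terminals that contact interneurons.

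Libraries held 23425817 to 31671838 counts on RNA records. Ribosomal RNA rows took 59.0% and 58.5% of counts in sham replicates 4 and 5, from 23.8% to 26.2% in the other 3 sham rats and from 12.5% to 25.5% in TBI rats. The mean share was 38.7% ± 18.3 (SD, n = 5) for sham and 19.7% ± 5.23 (SD, n = 5) for injured rats (p = 0.0238 in an exact two-sided permutation test). Where a receptor moves with this share, its part and that of the injury cannot be told apart in these groups, so such values are also given without these 2 sham rats. Of the lists fixed for neurons, CA3 pyramidal cells, dentate granule cells and glia, none of the tested defining markers was at 0 counts in any library. Summed markers of CA1 pyramidal cells, a field next to the tissue taken, were at 49.7 to 106 CPM in sham and 37.7 to 377 CPM in TBI rats, and those of microglia at 135 to 220 and 164 to 234 CPM, where CPM is a count scaled to the normalized library size. Of these lists 2 of 4 and 2 of 6 genes were higher in TBI at an unadjusted p under 0.05, against 4.89% of all rows tested. Their part in the receptor values was not tested. No library was a copy of another.

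No receptor passed an adjusted p of 0.05, and the estimates ran from a small difference upward in Grm4 to lower values in Grm7 and Grm8. In edgeR's quasi-likelihood test 0 of the 6 receptors passed after Benjamini-Hochberg adjustment, against 0% of all 22431 rows tested. The same count was 0 with DESeq2, with limma voom, and with edgeR's likelihood ratio and exact tests. At an unadjusted p under 0.05 there were 2 receptors, Grm7 and Grm8, against 7.89% of all rows. Both were lower in TBI, where 3% of all rows were lower at that threshold, and 0 receptors were higher, where 4.89% of all rows were. No receptor had groups that did not overlap in CPM, against 0.923% of all rows. The median log2 change over the 6 receptors was -0.11, with 2 positive and 4 negative, and the median over all rows was -0.01, with 47.8% positive. In bulk tissue, a lower value from fewer cells of a type cannot be told apart from less RNA per cell.

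**Figure D1:**
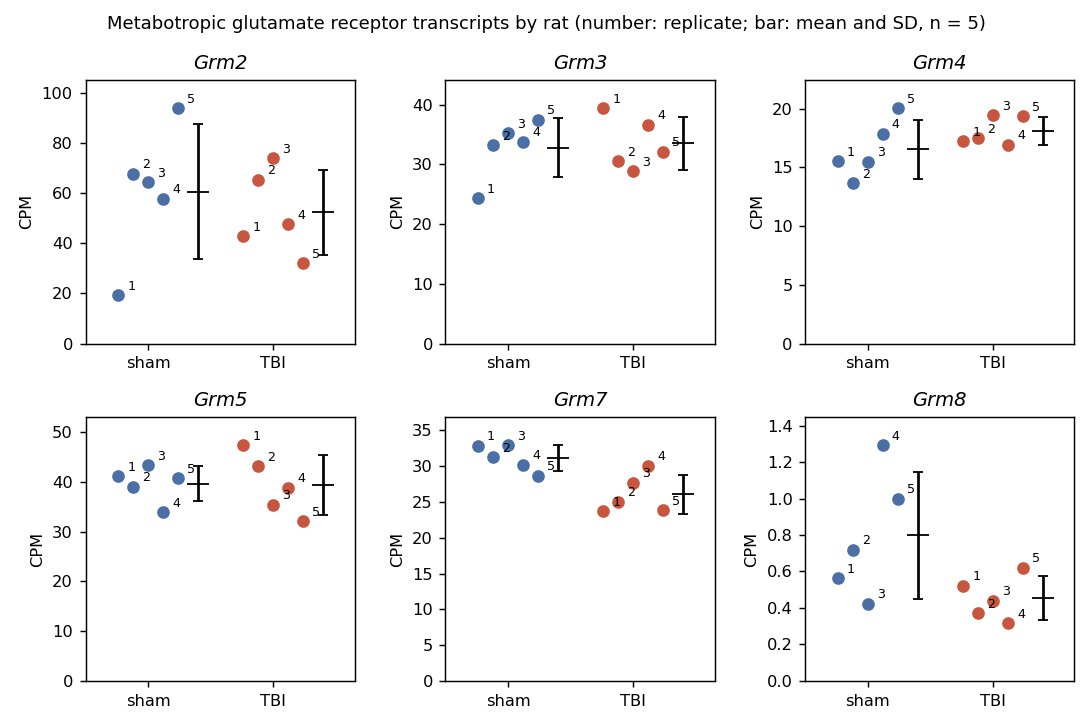
Level of each receptor transcript in CPM (vertical axes, each from 0) in the 5 sham and 5 TBI rats. Each point is a rat with its replicate number, and each bar is the group mean with its SD. The groups overlap in all 6 panels. In the Grm7 panel 4 of the 5 TBI rats lie below the lowest sham rat, and in the Grm2 panel sham replicate 1 lies below the other sham rats.

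Grm5, a group I receptor, gave the estimate nearest to 0. Grm5 was at 41.1, 39.1, 43.3, 33.9 and 40.7 CPM in sham replicates 1 to 5 and at 47.4, 43.2, 35.4, 38.8 and 32.1 CPM in TBI replicates 1 to 5. The TBI rats held both the highest and the lowest value, so the sham range lay inside the TBI range. Means were 39.6 CPM ± 3.54 (SD, n = 5) in sham and 39.4 CPM ± 6.06 (SD, n = 5) in TBI rats. The log2 change was -0.01 (SE 0.0994, 95% interval -0.22 to 0.20; adjusted p = 0.991 in edgeR's quasi-likelihood test). This interval spans both directions and does not show that the groups were equal. Counts of Grm5 were from 499 to 1633 per library, so counting error was small beside the spread between rats.

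Grm2, the group II receptor of granule cells, varied most between rats of 1 group in proportion to its mean among the well-counted receptors. Grm2 was at 19.3, 67.9, 64.6, 57.8 and 94.1 CPM in sham replicates 1 to 5. In TBI replicates 1 to 5, Grm2 was at 42.8, 65.5, 74.0, 47.8 and 32.0 CPM. Sham replicate 1 was the lowest of all rats and sham replicate 5 the highest, so every TBI rat lay within the sham range. The coefficient of variation was 44.4% in sham and 32.6% in TBI rats, against 2.50% from counting alone at the mean of its counts. Means were 60.7 CPM ± 27.0 (SD, n = 5) and 52.4 CPM ± 17.1 (SD, n = 5). The log2 change of -0.21 had an SE of 0.402 and a 95% interval from -1.13 to 0.71 (adjusted p = 0.935 in edgeR's quasi-likelihood test). The estimate depended on single rats, since it was -0.44 without sham replicate 1, the lowest rat in Grm2, and -9.4e-05 without sham replicate 5, the highest. Of the 2 sham rats rich in ribosomal RNA, leaving out sham replicate 4 alone gave -0.23, and leaving out both gave 0.06.

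The level of Grm2 went with the summed level of granule cell markers in the lowest and highest rats. The sum of Prox1, a transcription factor of granule cells, Calb1, the calcium-binding protein calbindin, and C1ql2, a protein secreted at mossy fibre synapses, was 54.5, 167, 174, 169 and 190 CPM in sham replicates 1 to 5. The same sum was 105, 124, 185, 139 and 74.8 CPM in TBI replicates 1 to 5. Sham replicate 1, TBI replicate 5 and TBI replicate 1 were the 3 lowest rats both in this sum and in Grm2, and sham replicate 5 was the highest in both. Rats in between differed in order. Sham replicate 4 had a sum of 169 CPM with Grm2 at 57.8 CPM, and TBI replicate 2 had 124 and 65.5 CPM. C1ql2 made up the largest part of the sum, and sham replicate 5 was the highest rat in Prox1 but not in Calb1 or C1ql2. Granule cell markers overlapped between the groups, at 54.5 to 190 CPM in sham and 74.8 to 185 CPM in TBI rats, and 0 of the 3 tested passed an unadjusted p under 0.05. Dsp and Tdo2 of the same list were not tested. The share of dentate gyrus in each dissected piece is not given, and its part in the spread of Grm2 was not tested.

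**Figure D2:**
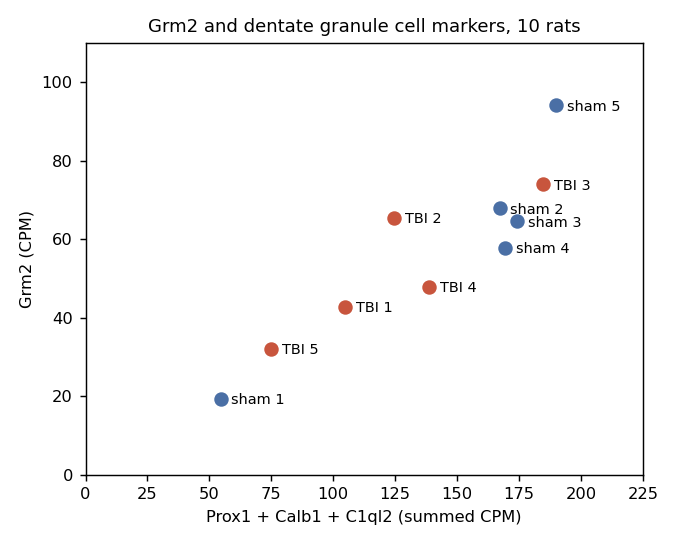
Grm2 in CPM (vertical axis) against the summed CPM of the granule cell markers Prox1, Calb1 and C1ql2 (horizontal axis), 1 point per rat, blue for sham and red for TBI. Sham replicate 1 is lowest on both axes, at 54.5 and 19.3 CPM, and sham replicate 5 is highest on both, at 190 and 94.1 CPM.

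Grm3, the group II receptor also found in astrocytes, did not separate the groups. Grm3 was at 24.4, 33.2, 35.2, 33.8 and 37.5 CPM in sham replicates 1 to 5 and at 39.4, 30.6, 28.9, 36.7 and 32.1 CPM in TBI replicates 1 to 5. The lowest rat was again sham replicate 1, and the highest was TBI replicate 1. Means were 32.8 CPM ± 4.99 (SD, n = 5) in sham and 33.5 CPM ± 4.39 (SD, n = 5) in TBI rats, with a log2 change of 0.03 (SE 0.110, 95% interval -0.20 to 0.27; adjusted p = 0.965 in edgeR's test). The sign turned to -0.06 without sham replicate 1. Summed astrocyte markers were at 1134 to 2032 CPM in sham and 1343 to 2817 CPM in TBI rats, and Gfap made up most of this sum. In TBI 5 of 6 genes were higher, 2 of these at an unadjusted p under 0.05, against 4.89% of all rows higher at that threshold. The other gene of the list, Gjb6, was at a fold of 0.999. The part of these markers in the level of Grm3 was not tested.

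Group III gave the largest differences in both directions. Grm4, a presynaptic group III receptor, had the highest positive estimate of the 6. Grm4 was at 15.5, 13.7, 15.5, 17.9 and 20.1 CPM in sham replicates 1 to 5 and at 17.2, 17.5, 19.5, 16.9 and 19.3 CPM in TBI replicates 1 to 5. Every TBI rat was above the sham mean, but sham replicate 5 was the highest of all rats and the ranges overlapped. Means were 16.5 CPM ± 2.48 (SD, n = 5) in sham and 18.1 CPM ± 1.22 (SD, n = 5) in TBI rats. The log2 change was 0.14 (SE 0.0996, 95% interval -0.07 to 0.35; adjusted p = 0.775 in edgeR's quasi-likelihood test).

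The 2 sham rats richest in ribosomal RNA were also the 2 highest sham rats in Grm4. Without them the log2 change of Grm4 was 0.28, with the ribosomal RNA share as a covariate it was 0.31, and without sham replicate 5 alone it was 0.21. Each of these had an unadjusted p under 0.05, which the estimate from all rats did not, and none had an adjusted p under 0.05. Without sham replicate 2, the lowest rat in Grm4, the log2 change was instead 0.077 and did not pass the unadjusted threshold. The adjusted p of Grm4 ran from 0.274 to 0.996 over its 23 alternatives. The direction was positive in all 23.

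Grm7, the group III receptor of active zones, had the smallest p-value of the set, and its means differed by more than the SD of either group. Grm7 was at 32.9, 31.2, 32.9, 30.2 and 28.7 CPM in sham replicates 1 to 5. In TBI replicates 1 to 5, Grm7 was at 23.7, 25.0, 27.7, 30.05 and 23.9 CPM. All 5 TBI rats were below the sham mean and 4 were below the lowest sham rat, while TBI replicate 4 lay inside the sham range. Means were 31.2 CPM ± 1.81 (SD, n = 5) and 26.1 CPM ± 2.74 (SD, n = 5). The log2 change was -0.26 (SE 0.0832, 95% interval -0.44 to -0.09), a fold of 0.834 with an interval from 0.739 to 0.942. The adjusted p in edgeR's quasi-likelihood test was 0.487, with a range of 0.267 to 0.974 over the alternatives, so Grm7 failed the correction for all rows tested.

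The estimate for Grm7 moved little when rats were left out. It lay between -0.32 and -0.23 over the 10 fits that each left out 1 rat, and all 10 kept an unadjusted p under 0.05. Without sham replicates 4 and 5 the log2 change was -0.31, and with the ribosomal RNA share as a covariate it was also -0.31. Scaling by total counts, ribosomal RNA included, gave 0.22, but that scaling moved the median of all rows to 0.50, and Grm7 relative to that median was at -0.28. Scaling by the counts outside ribosomal RNA gave -0.12, or -0.26 relative to the median of all rows, which was then 0.14. Neither of these passed an unadjusted p under 0.05.

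Markers of GABAergic interneurons were also lower on average in TBI, with 0 of 7 genes at an adjusted p under 0.05. Their summed level was 180 to 255 CPM in sham and 132 to 211 CPM in TBI rats, all 7 genes of the list were lower in TBI, and 3 of the 7 had an unadjusted p under 0.05, against 3% of all rows lower at that threshold. These were Gad1 and Gad2, which make GABA, and Lhx6, a transcription factor of interneurons. The log2 change of Gad1 was -0.46 and that of Gad2 was -0.46, both with adjusted p = 0.477 in edgeR's test, and that of Lhx6 was -0.36 (adjusted p = 0.574). The study lists Gad1 and Gad2 as downregulated in its TBI model, at an adjusted p under 0.05 in its own edgeR test. Its methods give fewer controls for expression profiling than the labels do. Markers of neurons as a whole were at 1667 to 2057 CPM in sham and 1571 to 1944 CPM in TBI rats, with 0 of 5 at an unadjusted p under 0.05. Rat by rat the order of Grm7 and of the interneuron marker sum was alike only in part. TBI replicate 1 was the lowest of all rats in both, with a sum of 132 CPM and Grm7 at 23.7 CPM. TBI replicate 4, the highest TBI rat in Grm7, had a marker sum of 140 CPM. TBI replicate 3 had the highest TBI sum at 211 CPM, with Grm7 at 27.7 CPM. The part of interneuron content in the level of Grm7 was not tested.

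Grm8, a group III receptor of presynaptic terminals, had the largest log2 change and the fewest counts. Its counts were 18, 20, 13, 19 and 16 in sham replicates 1 to 5 and 18, 14, 15, 10 and 24 in TBI replicates 1 to 5. The raw counts of the groups were alike, with totals of 86 in sham and 81 in TBI rats and medians of 18 and 15. After normalization, Grm8 was at 0.562, 0.719, 0.422, 1.29 and 1.00 CPM in sham replicates 1 to 5 and at 0.522, 0.373, 0.440, 0.316 and 0.622 CPM in TBI replicates 1 to 5. The 2 highest rats were sham replicates 4 and 5, the 2 rich in ribosomal RNA. Sham replicate 2 was also above the highest TBI rat, and sham replicates 1 and 3 lay inside the TBI range.

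Means of Grm8 were 0.799 CPM ± 0.349 (SD, n = 5) in sham and 0.454 CPM ± 0.121 (SD, n = 5) in TBI rats. The log2 change was -0.70 (SE 0.304, 95% interval -1.33 to -0.06), a fold of 0.617 with an interval from 0.397 to 0.960 (adjusted p = 0.603 in edgeR's quasi-likelihood test). Sham replicates 4 and 5 held only 12686398 to 12987310 counts outside ribosomal RNA, against 17858212 to 24735107 in the other 8 rats. Without these 2 rats the log2 change of Grm8 was -0.30, and with the ribosomal RNA share as a covariate it was -0.23, and neither passed an unadjusted p under 0.05. That threshold was also lost without sham replicate 4 alone (-0.50), sham replicate 5 (-0.60), TBI replicate 2 (-0.63), TBI replicate 3 (-0.68) or TBI replicate 4 (-0.60). The exact 95% Poisson interval of the lowest count, 10 in TBI replicate 4, was 4.80 to 18.4. That of the highest, 24 in TBI replicate 5, was 15.4 to 35.7. These intervals cover counting error only and overlap, but both belong to TBI rats, so they do not compare the groups.

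**Figure D3:**
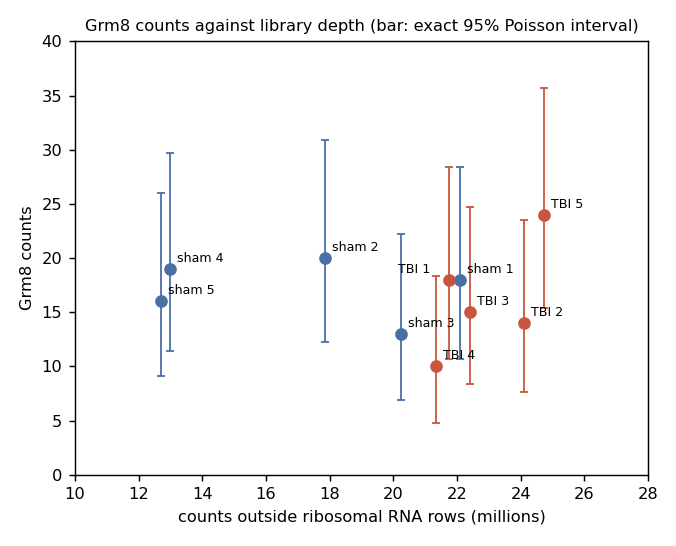
Raw count of Grm8 (vertical axis) against the counts outside ribosomal RNA rows (horizontal axis, which does not start at 0), 1 point per rat, blue for sham and red for TBI, with exact 95% Poisson intervals as bars. Counts are 10 to 24 in all rats, while sham replicates 4 and 5 lie apart on the left at 12686398 to 12987310 counts.

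Grm6, the remaining group III receptor, known from retinal bipolar cells, is no member of the set. Grm6 was at 3.81 CPM ± 1.18 (SD, n = 5) in sham and 3.62 CPM ± 0.524 (SD, n = 5) in the TBI group, with a log2 change of -0.11 (SE 0.179, adjusted p = 0.920 in edgeR's test).

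**Figure D4:**
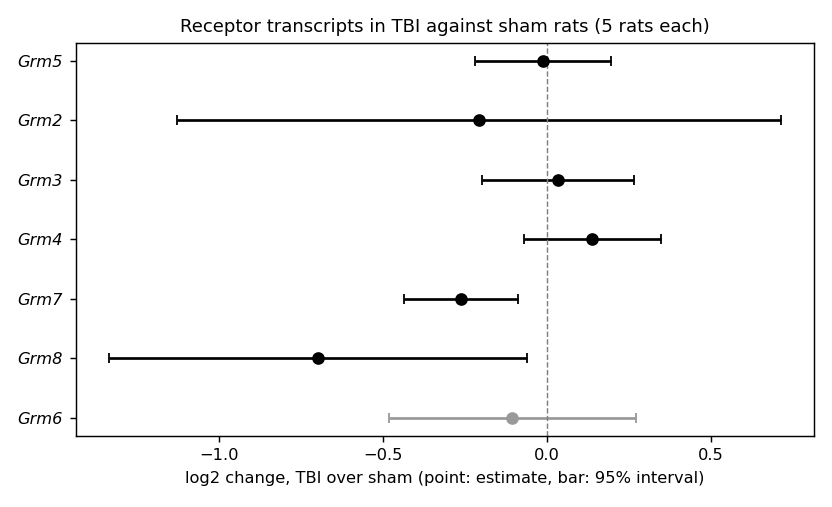
Log2 change of TBI over sham (horizontal axis) for the 6 receptors in black and for Grm6 in grey, as the estimate with its 95% interval. Before correction for all rows tested, the intervals of Grm7 (-0.44 to -0.09) and Grm8 (-1.33 to -0.06) lie below 0, and those of the other genes include 0.

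The receptors were also compared with each other within each rat, which removes the library size. The ratio of Grm4 to Grm7 counts was singled out after its values were seen. It was 0.473, 0.437, 0.471, 0.592 and 0.699 in sham replicates 1 to 5 and 0.726, 0.699, 0.702, 0.563 and 0.811 in TBI replicates 1 to 5. TBI replicate 4 lay below sham replicates 4 and 5, both rich in ribosomal RNA, so the groups overlapped. The remaining sham rats were at 0.437 to 0.473, and the TBI rats at 0.563 to 0.811. The part of the ribosomal RNA share in this ratio was not tested. The mean log2 ratio was 0.40 higher in TBI, with an SD of 0.282 in sham and 0.191 in TBI rats, and no test was made. Of the 15 pairs of receptors, 0 had ratios that did not overlap between the groups. No such share was computed over pairs of other genes, so this count is a description only. Among single rows, 0.923% did not overlap. A ratio shows unequal change of a pair and not which of them changed.

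For each receptor the genes with the most alike pattern of log2 CPM over the 10 rats are given as a description, out of 8279 candidate genes (8280 for Grm8). Grm2 was most like Tiam1, an exchange factor for the small GTPase Rac (Pearson r = 0.981, Spearman rho = 0.952), and Ccdc85a (r = 0.980, rho = 0.927). Grm5 was most like Ubxn2b (r = 0.971, rho = 1) and Acap2 (r = 0.968, rho = 0.952). Grm3 was most like Pls1, an actin-bundling protein (r = 0.961, rho = 0.988), and Adam17, a membrane protease (r = 0.939, rho = 0.830). The highest likeness was lower in group III, where Grm4 was most like Cfap298 (r = 0.929, rho = 0.855) and F12, a coagulation factor (r = 0.919, rho = 0.879). Grm7 was most like Socs5, a suppressor of cytokine signalling (r = 0.893, rho = 0.818), and Recql, a DNA helicase (r = 0.891, rho = 0.830). Grm8 was most like Sike1 (r = 0.904, rho = 0.733) and Phyh, a peroxisomal enzyme (r = 0.894, rho = 0.891). All points share libraries and their depth, and the best of so many genes is high by the search alone.

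The genes through which the receptors act or are supplied were read from 5 lists of 64 genes, of which 60 were tested. By edgeR's quasi-likelihood test, 0 of the 60 had an adjusted p under 0.05. At an unadjusted p under 0.05 there were 7, or 11.7%, with 3 higher and 4 lower in TBI, against 7.89% of all rows. The count was 4 with the ribosomal RNA share as a covariate, against 4.42% of all rows. Without sham replicates 4 and 5 it was also 4, against 5.6%. The values by list below are from the fit of all 10 rats. The median log2 change of the 60 genes was -0.02.

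For group I coupling and scaffold genes, which serve Grm5, 1 of 16 tested had an unadjusted p under 0.05, against 7.89% of all rows. This was Plcb3, a phospholipase C that Gq activates, at 8.69 CPM ± 0.842 (SD, n = 5) in sham and 10.9 CPM ± 1.22 (SD, n = 5) in TBI rats (log2 change 0.32, SE 0.103, adjusted p = 0.487 in edgeR's test). The median of this list was 0.02. The receptor itself was at -0.01. Homer1, the scaffold that binds its tail, was named after its value was seen, at -0.03 (SE 0.101). So were Homer2, at 0.04 (SE 0.176), and Homer3, at 0.16 (SE 0.148).

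For Gi/o proteins and effectors, which serve groups II and III, 2 of 21 tested had an unadjusted p under 0.05, 1 in each direction. The share of all rows at that threshold was 7.89%. Gnai2, an inhibitory G protein subunit, was at 247 CPM ± 15.8 (SD, n = 5) in sham and 286 CPM ± 20.2 (SD, n = 5) in TBI rats (log2 change 0.21, SE 0.0769, adjusted p = 0.511 in edgeR's test). Adcy8, a calcium-activated adenylyl cyclase, was at 6.50 CPM ± 2.06 (SD, n = 5) in sham and 4.83 CPM ± 0.394 (SD, n = 5) in TBI rats (log2 change -0.40, SE 0.181, adjusted p = 0.621). All TBI rats lay within the sham range of Adcy8, which was 3.62 to 8.69 CPM. The median of this list was -0.05.

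Among proteins that bind group II and III receptors, 2 of 9 tested had an unadjusted p under 0.05. Both were lower in TBI, where 3% of all rows were lower at that threshold. Mpdz, a scaffold with many PDZ domains, was at 55.0 CPM ± 4.52 (SD, n = 5) in sham and 47.6 CPM ± 3.56 (SD, n = 5) in TBI rats (log2 change -0.21, SE 0.0795, adjusted p = 0.548 in edgeR's test). Grip1, another PDZ scaffold, was at 12.3 CPM ± 1.22 (SD, n = 5) in sham and 10.6 CPM ± 0.814 (SD, n = 5) in TBI rats (log2 change -0.20, SE 0.0943, adjusted p = 0.626). The median of this list was -0.07. Elfn1, which recruits Grm7 across the synapse, was named after its value was seen, at a log2 change of -0.26 (SE 0.135, adjusted p = 0.682), and did not pass the unadjusted threshold. Pick1, which binds the tail of Grm7, was likewise named after its value was seen, at 0.04 (SE 0.100).

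For the supply and clearance of glutamate and of N-acetylaspartylglutamate, a peptide that activates Grm3, 2 of 12 tested had an unadjusted p under 0.05. The share of all rows at that threshold was 7.89%. Slc7a11, the exchanger that releases glutamate for cystine, was at 33.6 CPM ± 3.53 (SD, n = 5) in sham and 42.5 CPM ± 6.50 (SD, n = 5) in TBI rats (log2 change 0.34, SE 0.101, adjusted p = 0.483 in edgeR's test). Slc17a8, a vesicular glutamate transporter, was at 4.31 CPM ± 0.660 (SD, n = 5) in sham and 3.56 CPM ± 0.319 (SD, n = 5) in TBI rats (log2 change -0.28, SE 0.128, adjusted p = 0.620). The median of this list was 0.01. Counts of 1 or 2 genes per list at an unadjusted threshold show no pattern for any list.

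**Figure D5:**
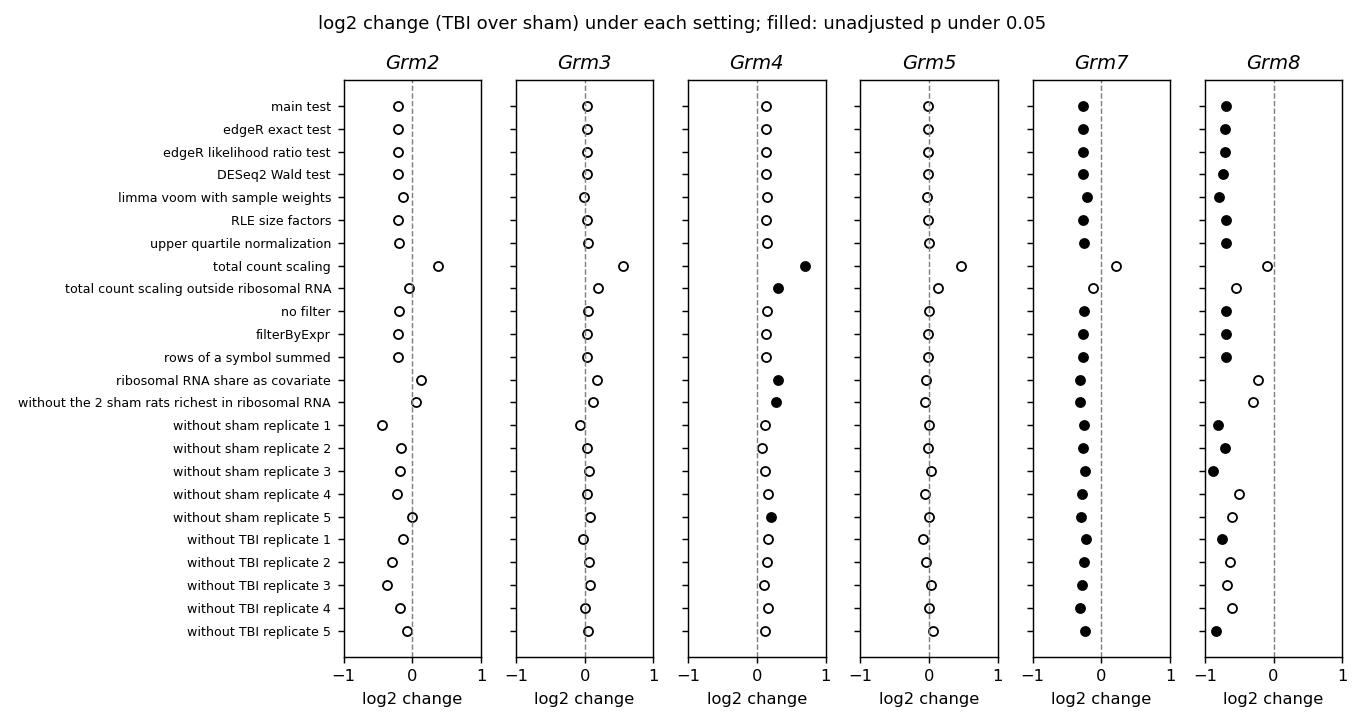
Log2 change of TBI over sham (horizontal axes, -1 to 1) for each receptor under the main test and 23 alternatives (rows). Filled points had an unadjusted p under 0.05 and open points did not. Grm7 is filled in 21 of 23 alternatives, Grm8 in 14 and Grm4 in 5, while Grm2, Grm3 and Grm5 are open in all.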

How the data were processed

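The authors sequenced poly-A RNA as single reads of 36 bases and deposited a raw read count for every RefSeq RNA record in each of the 10 rats, with no normalization and no pooling. Per the submitters' processing notes and the methods, reads were aligned with BWA to rat assembly rn4. The methods name Ensembl transcripts, whereas the rows are RefSeq records, and strand is not stated for the counting, so overlapping genes and isoforms are uncertain. Of 32043 rows, 2 (an empty entry and unmapped reads) named no record and were left out. Symbols came from a RefSeq gene table of assembly GRCr8, used for names only, and covered 54.2% of records and 57.7% of tested rows.

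Rows with a total of at least 44 counts (the 30th percentile) were kept. The 22431 rows left were fitted together in edgeR 4.0.16 under R 4.3.3 (quasi-likelihood F test, robust, TMM), with Benjamini-Hochberg adjustment over all of them. CPM used the TMM library size, and log2 CPM a prior count of 2. Changes are TBI over sham. Library measures were put to an exact permutation test (two-sided, all 252 labellings), whose smallest possible p is 0.00794. Levels of different genes were not compared, since transcript lengths were not used here. Rats are separate animals, and replicate numbers follow sample order and pair no rats.

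The receptors and gene lists were chosen with earlier results of these data known. Named genes were the 6 receptors, Grm6, of each list those with an unadjusted p under 0.05 or else the one with the smallest p, and for each receptor the 2 symbols with mean CPM of at least 5 and the highest Pearson correlation. Marker genes and genes said to be named after their values were seen fall outside this rule. A further gene that the rule names is not reported here.

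Alternatives included DESeq2 1.42.0, limma 3.58.1 (voom with sample weights), edgeR's likelihood ratio and exact tests, other scalings and filters, summed rows, the ribosomal RNA share as a covariate, and leaving out rats. Figures used matplotlib 3.10.9.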

Additional observations from a re-analysis of the deposited data

Results flagged for a closer look

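In 16 groups of 5 values (the 6 receptors and the library measures, in sham and in TBI rats), 0 had a single highest or lowest rat past Dixon's 95% critical gap, where chance would give about 0.8. This gap cannot show 2 rats that lie apart together, as the ribosomal RNA shares of sham replicates 4 and 5 did, at 59.0% and 58.5% against 23.8% to 26.2% in the other 3 sham rats.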

How the results depend on the processing

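Over 23 alternatives for each of the 6 receptors, 138 estimates in all, 111 kept their direction and their side of the unadjusted threshold, 12 changed direction, 10 lost that threshold and 5 passed it newly. The count of receptors with an adjusted p under 0.05 was 0 in every fit. With total count scaling the number of receptors with an unadjusted p under 0.05 was 1, namely Grm4, and that of pathway genes 4. Of all rows 16.9% passed that threshold there, and the log2 changes of Grm2, Grm5 and Grm7 turned to 0.37, 0.46 and 0.22. With scaling by the counts outside ribosomal RNA the receptor count was 1, again Grm4, against 12.9% of all rows, and Grm5 turned to 0.14. With the ribosomal RNA share as a covariate the pathway count was 4 and Grm2 turned to 0.12, against 4.42% of all rows at that threshold. Without the 2 sham rats richest in it they were 4 and 0.058, against 5.6% of all rows. In both of these fits, and without sham replicate 5 alone, the 2 receptors were Grm4 and Grm7, not Grm8. Grm3 was at -0.014 with limma voom. Leaving out 1 rat gave receptor counts from 1 to 2 (main 2; 1 without sham replicate 4 or TBI replicate 2, 3 or 4) and pathway counts from 4 without TBI replicate 5 to 9 without sham replicate 1 (main 7). Grm3 then ran from -0.061 to 0.084 (negative without sham replicate 1, and -0.030 without TBI replicate 1) and Grm5 from -0.087 to 0.054 (positive without sham replicate 3 or TBI replicate 3, 0.023 and 0.024, or TBI replicate 5). The difference in ribosomal RNA share ran from -22.7 to -13.9 percentage points, with an exact permutation p of 0.0635 to 0.127 without any 1 TBI rat. Beyond the scalings' own shift of all rows, the cause was not tested. Depth limits Grm8, where counting alone gave a coefficient of variation of 24.5%. No paired analysis was possible because the replicate numbers only follow sample order.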
